A study of Mus musculus with 1298 samples.

Results

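Cells of the Pax7 lineage kept in an adipogenic differentiation medium (ADM) were compared with cells of the same origin kept in a plain growth medium, Dulbecco's version of Eagle's medium (DMEM). The members were all bulk RNA-seq libraries of cultured cells, assigned to ADM or DMEM by the medium in the label and in the header of the deposited count table. They numbered 12 of the 18 bulk libraries, with 6 in ADM and 6 in DMEM, among 1298 samples in the whole study, which otherwise holds single cells of embryos and 6 freshly sorted bulk libraries. Both media held cells from *Pax7*-CreER:R26R-stop-EYFP mouse embryos, in which tamoxifen switches on YFP in cells that express *Pax7* and in their progeny. All dams had received 1 dose of tamoxifen of 75 µg per g of body weight at embryonic day 9.5 (E9.5). The embryos were pooled at E14.5, and YFP+ Pdgfra+ cells were sorted as Thy1- or Thy1+ and plated on gelatin in DMEM with fetal bovine serum. Wells for ADM were moved after confluency to a first and then a second adipogenic medium, and the composition of both and the time of harvest are not given in the sources used here. The sign of the Thy1 sort does not survive in the table's column names, so both sorts were kept as 1 group in each medium. Each column name occurs in 2 series, one without and one with an added ending, and the libraries were numbered here in that order. ADM 1 to 3 and DMEM 1 to 3 carry the plain names, and ADM 4 to 6 and DMEM 4 to 6 carry the added ending. Whether each series holds a single sort is not stated in the headers. Each number stands for 1 well of a triplicate, and nothing in the labels says that wells came from separate pools of embryos, so p-values measure the spread between these wells.

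Adipogenesis is the conversion of mesenchymal progenitors into fat cells. The transcription factor PPARγ, with members of the C/EBP family, switches on genes for fatty acid uptake, triglyceride storage and insulin response, while progenitor, matrix and proliferation genes are usually turned down. Brown fat cells arise in part from the Pax7 lineage and add many mitochondria and the uncoupling protein UCP1, which releases the energy of fatty acid oxidation as heat.

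The promoters of 3 genes described here are shown because each holds a short motif that was searched for, TCACCCCAC or TATAAA. Each runs from 250 bases before to 50 bases after a RefSeq start of the gene (GRCm38.p6), 5′ to 3′ on the gene's strand. *Hmgcs1*, a gene of cholesterol synthesis, lies at chr13:119690101-119690400 on the + strand, and capitals mark the 9 letters TCACCCCAC, the core of the sterol response element. *Cav1*, which encodes the coat protein of caveolae, lies at chr6:17306085-17306384 on the + strand, and capitals mark TATAAA read on the other strand. This copy is near the 5′ end of the stretch, far from the start. *Rbp4*, which encodes a retinol carrier secreted by fat cells, lies at chr19:38124762-38125061 on the - strand, and capitals mark TATAAA with its first base at position -28. *Cav1* and *Rbp4* each have another RefSeq promoter without TATAAA, at chr6:17307390-17307689 and chr19:38125272-38125571, which is not shown.
Hmgcs1: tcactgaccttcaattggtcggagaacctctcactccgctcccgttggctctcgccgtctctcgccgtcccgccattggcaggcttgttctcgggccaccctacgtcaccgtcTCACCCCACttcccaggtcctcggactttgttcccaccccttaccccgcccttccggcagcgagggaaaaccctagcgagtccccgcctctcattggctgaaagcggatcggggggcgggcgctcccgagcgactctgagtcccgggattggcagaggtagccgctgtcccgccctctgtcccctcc
Cav1: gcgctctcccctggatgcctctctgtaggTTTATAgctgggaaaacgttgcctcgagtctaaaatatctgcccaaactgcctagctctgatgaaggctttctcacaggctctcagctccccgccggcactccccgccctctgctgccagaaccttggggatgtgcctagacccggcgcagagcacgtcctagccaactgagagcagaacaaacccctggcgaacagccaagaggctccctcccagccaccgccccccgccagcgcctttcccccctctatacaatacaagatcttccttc
Rbp4: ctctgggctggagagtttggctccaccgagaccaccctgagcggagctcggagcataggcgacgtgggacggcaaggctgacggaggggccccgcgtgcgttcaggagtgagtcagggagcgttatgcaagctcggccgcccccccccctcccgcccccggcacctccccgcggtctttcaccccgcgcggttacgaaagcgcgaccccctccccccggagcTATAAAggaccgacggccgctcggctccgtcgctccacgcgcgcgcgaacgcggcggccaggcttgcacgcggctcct
Both strands of all 32851 promoters in the RefSeq table were searched. Of the 85 lipid, adipokine and thermogenic genes called higher in ADM below, 63 matched the table, with 82 promoters. TATAAA was in 5 of these 82 promoters (6.1%) and in 13.6% of all promoters. The direct repeat of AGGTCA with 1 base between its copies, a form that PPARγ binds, was in 0 of the 82 and in 0.0396% of all, and the palindrome TTGCGCAA in 0 of the 82 and in 0.183% of all. The sterol element core was in 1 of the 14 promoters of the cholesterol genes called higher (7.14%), that of *Hmgcs1*, and in 0.551% of all, and this motif was chosen after the *Hmgcs1* sequence was seen.

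The ADM libraries were shallower than the DMEM libraries. They held 3390851 to 11758559 counts and the DMEM libraries 19480903 to 35332908 (n = 6 each), with no overlap (2-sided exact permutation p = 0.002165, Benjamini-Hochberg adjusted p = 0.004329 over 4 library measures). Genes with at least 1 count numbered 15170 ± 569.1 (SD, n = 6) in ADM and 17620 ± 456.5 (SD, n = 6) in DMEM, with the same exact permutation p. The share of counts on mitochondrial genes was 13.57% ± 5.993 in ADM and 9.828% ± 3.031 in DMEM (SD, n = 6 each, exact permutation p = 0.1948). It was 17.61% to 19.98% in ADM 1 to 3 and 7.82% to 8.44% in ADM 4 to 6. Less RNA of a gene per cell and fewer cells that express it cannot be told apart in bulk libraries.

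The libraries of each medium fell into 2 sets by name series. In a principal component analysis, the first component held 72.9% of the variance and placed ADM 1 to 3 at 115.8 to 117.7, far from ADM 4 to 6 at -50.73 to -49.21. DMEM 1 to 3 lay at -7.23 to 10.83 and DMEM 4 to 6 at -68.38 to -66.85. The median SD of a gene's log2 CPM (a gene's counts per 1000000 counts of its library) was 0.565 over the 6 ADM libraries and 0.289 over the 6 DMEM libraries, but 0.143 to 0.23 within a series of 3 wells. On this axis the wells of a set lay closer to each other than to the other set of the same medium.

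**Figure D1:**
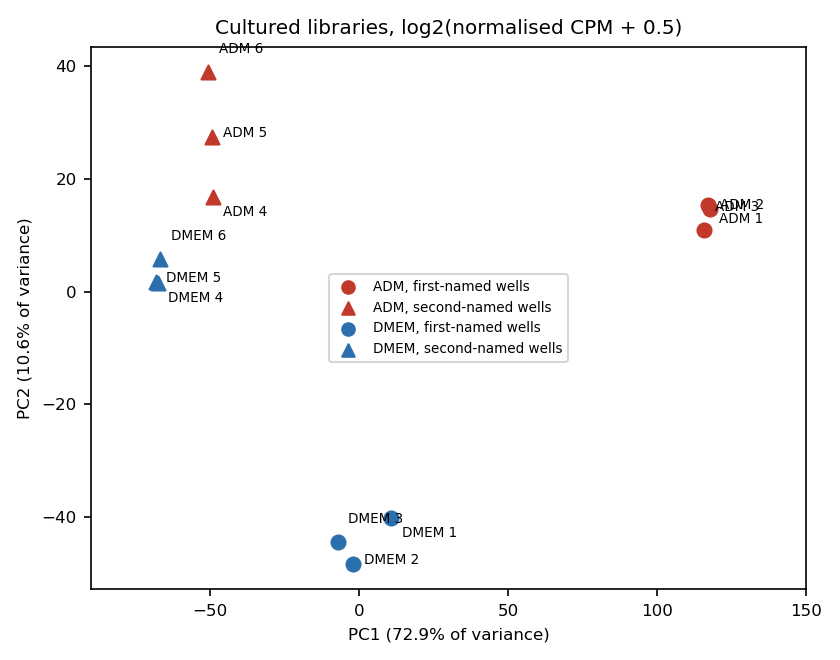
Principal component positions of the 12 cultured libraries on log2(normalised CPM + 0.5), with 1 point a library, colours for the medium and shapes for the column-name series. ADM 1 to 3 sit at 115.8 to 117.7 on the first axis (72.9% of variance) and the other 9 libraries at -68.38 to 10.83.

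The markers of the sorted population were present in both media. *Pdgfra*, the receptor used in the sort, was at 7.099 to 8.938 normalised CPM in ADM 1 to 3, 59.13 to 77.34 in ADM 4 to 6 and 29.22 to 76.58 in the DMEM libraries. The YFP transgene was at 255.4 to 437.1 normalised CPM in ADM and 245.2 to 328.6 in DMEM. *Thy1* differed between the name series in both media. It was at 1.824 to 4.141 in ADM 1 to 3, 20.06 to 26.26 in ADM 4 to 6, 5.491 to 7.753 in DMEM 1 to 3 and 43.155 to 53.99 in DMEM 4 to 6. *Pax7* and the keratinocyte gene *Krt14* had 0 counts in all 12 libraries, which allows up to 0.716 normalised CPM in the shallowest library and 0.0729 in the deepest, for counting error only. The summed markers of leukocytes reached at most 3.352 CPM, those of glia 10.02, of keratinocytes 1.155 and of erythroid cells 0.8874. The summed skeletal muscle markers were at 33.3 to 66.36 normalised CPM in ADM and 62.44 to 136.1 in DMEM, with *Actc1* the main one, and the endothelial markers at 11.68 to 42.79 and 15.12 to 31.11. The pericyte list, at 3269 to 17150 in ADM and 9466 to 16800 in DMEM, was mostly *Acta2*, and *Rgs5* was at 0.2958 to 1.984 CPM in every library. The neuron markers summed to 12.2 to 113.2 in ADM and 46.01 to 141.9 in DMEM, mostly *Tubb3*, and the tendon markers to 101.6 to 408.6 and 307.7 to 791.3. In the averaged test described next, the marker members that fell were *Tubb3*, *Stmn2* and *Nefl* (all 3 neuron markers tested), 5 of 8 pericyte markers, 2 of 4 endothelial ones, *Actc1* of skeletal muscle, *Tnmd* of tendon and *Sox9* of the cartilage and bone list. Over these lists *Col2a1* and *Col9a1*, also of cartilage and bone, were the only members that rose, the former at 17.74 to 37.86 CPM in ADM 1 to 3 and 7.034 or less elsewhere. The *Col2a1* call was lost without ADM 5 (adjusted p = 0.026) and that of *Col9a1* when any 1 of 3 libraries was left out (adjusted p up to 0.012). Their part in the results was not tested.

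The comparison was made in 3 ways, each over all genes. With the 6 libraries of each medium pooled, edgeR's quasi-likelihood test called 0 of 12029 genes (0%) at an adjusted p under 0.01, the threshold used throughout. The smallest adjusted p was 0.011, 3486 genes had an unadjusted p under 0.05, and DESeq2 called 1186 genes on the same libraries. Without any fitted spread, 2.40% of these genes were higher in every ADM library than in every DMEM library, and 2.64% were lower in every one, which became 0.474% and 3.81% with total counts only. The third way, chosen after the split into series was seen, set the mean of the 2 ADM series against the mean of the 2 DMEM series, with the spread taken between wells of a series. It called 2242 of 12969 genes higher in ADM (17.3%) and 2565 lower (19.8%), of which 851 and 1012 changed at least 2-fold. Below, "rose" and "fell" refer to this averaged test, adjusted p-values are from edgeR with Benjamini-Hochberg adjustment, and fold changes are log2 with their standard error (SE). Of the genes whose libraries did not overlap, 91% of the higher and 95% of the lower were also called in the same direction by the averaged test. Both ways used the same libraries and factors, and without overlap the direction is fixed in advance, so this is no independent check.

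ADM 1 to 3 left the DMEM range at more genes than ADM 4 to 6. These wells lay above all 6 DMEM libraries for 3455 genes (26.6%) and below all 6 for 3553 (27.4%). ADM 4 to 6 lay above all DMEM libraries for 1088 genes (8.39%) and below for 868 (6.69%). With total counts only the 4 numbers were 1166, 7905, 1157 and 704. The direction of the averaged calls moved with the scaling: 46.6% of the calls were higher with the TMM factors used here, 50.9% with DESeq2-type (RLE) factors, 40.8% with upper-quartile factors and 12.8% with total counts only. The median log2 fold change of all tested genes was -0.05, -0.01, -0.11 and -0.56 in that order. TMM factors were 0.545 to 0.576 in ADM 1 to 3 and 1.088 to 1.277 in the other 9 libraries. Base composition moved with the calls as well. Median transcript GC was 48.2% for genes that rose, 51.1% for genes that fell and 49.2% for all tested. Of 5 equal groups of genes ordered by GC, in the lowest 20.7% of genes rose and 12.4% fell, and in the highest 13.4% rose and 26.5% fell, and the part of GC in single calls was not tested.

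**Figure D2:**
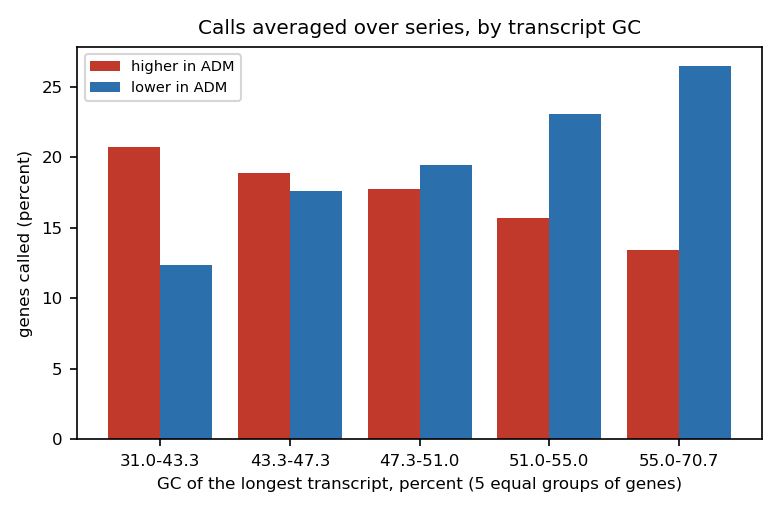
Share of tested genes that rose and fell in ADM by the averaged test, as bars side by side, in 5 equal groups of genes ordered by transcript GC in percent. In the group of lowest GC 20.7% of genes rose and 12.4% fell, and in that of highest GC 13.4% rose and 26.5% fell.

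A gene with no overlap between the media differs in the same direction whichever wells are set against each other. Of these genes, 24.9% of the higher and 58.7% of the lower differed by at least 2-fold in the pooled fit, 16 and 9 of them with a mean of at least 100 CPM. The highest-ranking by fold was *Elovl3* (chr19:46131897-46135694, + strand), which encodes a fatty acid elongase typical of brown fat. Its normalised CPM was 1296 to 1410 in ADM 1 to 3 and 1.365 to 3.086 in ADM 4 to 6, against 0 to 0.1699 in DMEM (pooled log2 fold change 13.45 ± 2.375, SE, adjusted p = 0.017). The DMEM values were near or below the level of 3 counts (0.0729 to 0.127 CPM), so the size of this fold is uncertain. *Angptl4*, an inhibitor of lipoprotein lipase, was at 417.2 to 476.7, then 31.03 to 37.71, against 4.885 to 21.06 in DMEM (pooled 4.44 ± 0.848, adjusted p = 0.023). Both were far higher in ADM 1 to 3 than in ADM 4 to 6, and both ADM sets cleared every DMEM well, though *Elovl3* overlapped between media after the counts were thinned to equal depth. *Cav1*, shown above, was more even, with a lowest, median and highest of 1449, 2251 and 3260 in ADM and 679, 743.2 and 1133 in DMEM (1.51 ± 0.292, adjusted p = 0.023). *Hmox1*, which encodes the heme-degrading enzyme induced by oxidative stress, was at 516.2 to 599.9, then 58.2 to 70.9, against 24.98 to 41.44 (3.17 ± 0.653, adjusted p = 0.028). *Ucp2*, a mitochondrial carrier related to *Ucp1*, was at 288.6 to 320.2, then 20.53 to 23.63, against 5.202 to 19.34 (3.83 ± 0.855, adjusted p = 0.032). None of these adjusted p-values from the pooled fit passed the threshold, while all 5 genes rose in the averaged test.

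The genes described next were lower in every ADM library. *Mest*, an imprinted gene of growing mesenchyme, was at 197.6 to 215.3 normalised CPM in ADM 1 to 3 and 437.1 to 539.9 in ADM 4 to 6, against 1022 to 1769 in DMEM (pooled -1.80 ± 0.334, adjusted p = 0.021). *Ptn*, which encodes the growth factor pleiotrophin, was at 376.9 to 428.1, then 2461 to 2914, against 4353 to 6462 (averaged -2.32 ± 0.093, adjusted p = 1.4e-14). *Gpc3*, a glypican that restrains growth signals, was at 91.55 to 182.4 over the 6 ADM libraries, against 261.7 to 866.3. *Mmp2*, a gelatinase that cuts matrix, was at 9.668 to 15.83, then 41.78 to 116.6, against a DMEM mean of 271.8 ± 61.34 (SD, n = 6, pooled -2.46 ± 0.628, adjusted p = 0.045). *Htra1*, a secreted protease, was at 1.432 to 9.768 in ADM and 21.32 to 84.89 in DMEM (pooled -3.25 ± 0.52, adjusted p = 0.012). None of the 5 reached the DMEM range, and ADM 1 to 3 were the lower set for *Mest*, *Ptn*, *Gpc3* and *Mmp2*. The ribosomal protein gene *Rps2* also did not overlap, at 94.05 to 252.2 against 442.2 to 1912, but varied widely between wells of DMEM 1 to 3 and has many processed copies in the genome, so its reads are uncertain.

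**Figure D3:**
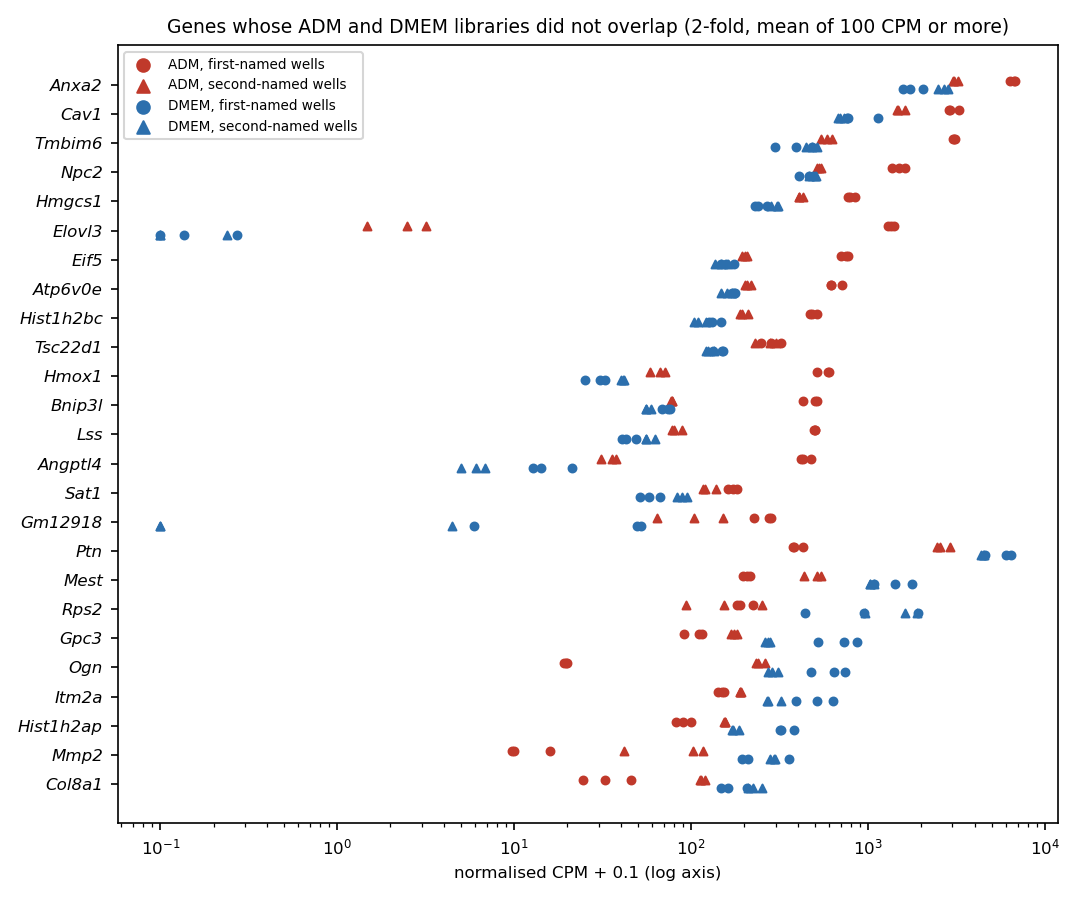
Normalised CPM + 0.1 (log axis) in each of the 12 cultured libraries for the genes whose ADM and DMEM libraries did not overlap, changed at least 2-fold in the pooled fit and had a mean of at least 100 CPM, with 16 higher and 9 lower in ADM. Points are single libraries, and *Elovl3* shows the widest gap, with 1.365 or more in ADM and 0.1699 or less in DMEM.

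Gene lists for the roles that matter in fat cell formation were then read in the averaged test. A list's counts stand beside those of all tested genes, of which 17.3% rose and 19.8% fell with a median of -0.05, and the lists were chosen with earlier results of these data known. Beside each list stands how many of its members had ADM 1 to 3, or ADM 4 to 6, above or below every DMEM library. A side not mentioned for either set held 0 members.

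**Figure D4:**
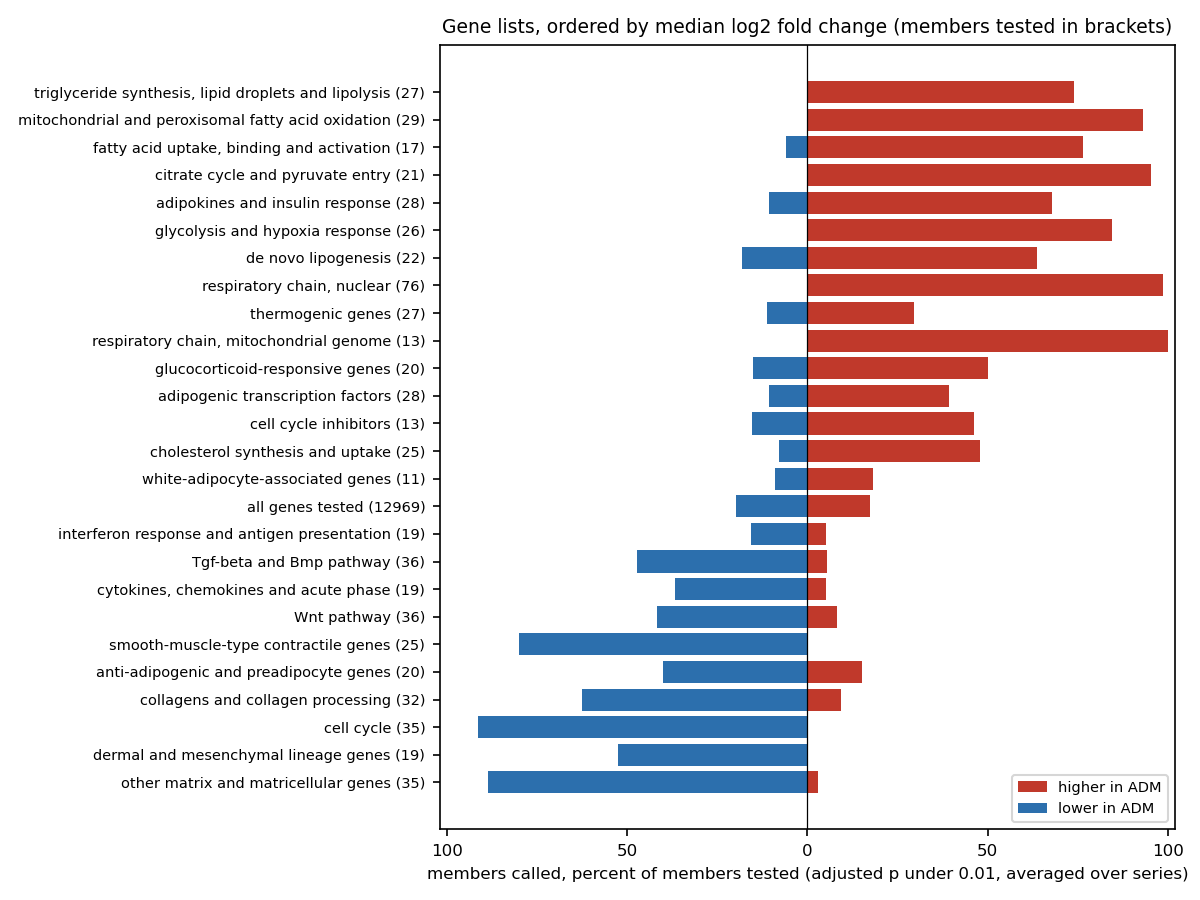
Percent of the tested members of each list that rose (right) or fell (left) in ADM by the averaged test, ordered by the list's median log2 fold change, with the number of members tested in brackets. The respiratory chain, citrate cycle and fatty acid oxidation lists lie almost wholly on the right, and the cell cycle and matrix lists on the left, against 17.3% and 19.8% of all genes.

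The transcription factors of adipogenesis were divided. Of 28 tested, 11 rose and 3 fell (median 0.40), but with total counts only more of them fell than rose. Every DMEM library was exceeded by ADM 1 to 3 for 13 and by ADM 4 to 6 for 1. ADM 1 to 3 were below every one for 1 and ADM 4 to 6 for 2. *Pparg*, the master regulator, was at 88.29 to 113.6 normalised CPM in ADM 1 to 3 and 2.425 to 5.252 in ADM 4 to 6, against 51.35 to 82.14 in DMEM 1 to 3 and 0.4167 to 1.491 in DMEM 4 to 6. It was therefore high in 1 set of each medium, and the media overlapped. It rose by the averaged test (1.08 ± 0.275, SE, adjusted p = 0.0085), a call lost when any 1 of 9 libraries was left out (adjusted p up to 0.024, without ADM 4). *Cebpa*, its partner in mature fat cells, was at 37.42 to 46.15, then 0 to 1.102, against 11.28 to 17.33 and 0.06983 to 0.1894 in DMEM. Its change of 1.80 ± 0.489 (adjusted p = 0.0071) fell to 0.48 without ADM 5 (adjusted p = 0.7). *Cebpd*, which acts early in differentiation, fell from 0.4888 to 4.162 CPM in DMEM to 0 to 0.8136 in ADM (-2.11 ± 0.424, adjusted p = 0.00028). The size of this fall is uncertain, since 3 counts equal 0.315 to 0.716 normalised CPM in the ADM libraries. *Cebpb* was below the filter, with at most 2.007 CPM in any library. *Srebf1*, which drives lipogenic genes, rose by 0.61 ± 0.096 (adjusted p = 1.7e-05), and *Arxes2* and *Arxes1*, PPARγ targets kept in the list that are no transcription factors, by 2.22 ± 0.104 and 1.97 ± 0.145. *Ebf1* and *Nfia*, factors of the adipocyte lineage, fell by 0.65 ± 0.077 and 0.66 ± 0.098. The brown fat factor *Ebf2* was at 41.41 to 49.44 CPM in ADM 1 to 3 and 37.99 to 52.14 in DMEM 1 to 3, with under 0.5 in the other 6 libraries, and did not pass the test (-0.23 ± 0.266, adjusted p = 0.58). *Prdm16*, the other brown fat factor, was at 0.2387 to 2.929 in ADM and 0.7956 to 3.524 in DMEM (-0.44 ± 0.276, adjusted p = 0.2).

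Genes that take up and bind fatty acids rose in most cases. Of 17 tested, 13 rose and 1 fell (median 1.77), with 14 higher than all DMEM libraries in ADM 1 to 3 and 2 in ADM 4 to 6. For 1 member ADM 1 to 3 were below all DMEM libraries. *Fabp4*, the fatty acid carrier of fat cells (chr3:10204088-10208576, - strand), was at 61680 to 69770 normalised CPM in ADM 1 to 3 and 1318 to 1348 in ADM 4 to 6. It was at 4676 to 7904 in DMEM 1 to 3 and 0.1137 to 0.2444 in DMEM 4 to 6, so ADM 4 to 6 lay between the DMEM sets. Its averaged change was 8.14 ± 0.164 (adjusted p = 1.5e-19), while the pooled fit, which takes the gap between sets as spread, gave 3.49 ± 2.176 (adjusted p = 0.3). In DMEM 4 to 6, 3 counts equal 0.0952 to 0.114 normalised CPM. *Fabp4* lay near this level there, so the size of its averaged change is uncertain. *Cd36*, a fatty acid receptor, was at 7254 to 8363, then 83.19 to 101.4, against 195.3 to 420.2 and 0.1047 to 0.3789 (6.56 ± 0.253). Its DMEM 4 to 6 values were close to that level as well, with the same limit. *Lpl*, the lipase that frees fatty acids from lipoproteins, was at 9529 to 9663, then 592.7 to 736.1, against 1059 to 1803 and 85.84 to 110.6 (2.74 ± 0.116). These 3 genes had the same order of sets, with ADM 4 to 6 above DMEM 4 to 6 and below DMEM 1 to 3. *Dbi*, which binds acyl-CoA, rose by 2.06 ± 0.102, *Fabp5* by 1.77 ± 0.102 and *Fabp3* by 1.80 ± 0.182. *Slc27a3* was the member that fell, at no more than 3.713 CPM in any library, and lost its call when any 1 of 6 libraries was left out (adjusted p up to 0.02, without DMEM 3).

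Triglyceride synthesis, lipid droplet and lipolysis genes rose in 20 of 27 tested members and none fell (median 2.05). For 23 of them ADM 1 to 3 were above every DMEM library, and ADM 4 to 6 for 0, with 2 below. *Cidec*, which fuses lipid droplets, was at 3717 to 4082 normalised CPM in ADM 1 to 3, 15.76 to 29.2 in ADM 4 to 6, 15.82 to 20.53 in DMEM 1 to 3 and 0 in DMEM 4 to 6. *Gpd1*, which supplies the glycerol backbone, was at 7394 to 9147, then 27.21 to 35.05, against 592.6 to 985.9 and 0 to 0.03789. *Agpat2*, an acyltransferase of triglyceride synthesis, rose by 3.96 ± 0.155 and the lipase *Pnpla2* by 3.13 ± 0.158, with its inhibitor *G0s2* at 3.67 ± 0.114. The droplet coat genes *Plin2*, *Plin4* and *Plin1* rose by 2.61 ± 0.077, 2.46 ± 0.207 and 1.49 ± 0.216. *Plin1* stayed low, at 38.13 to 56.63 CPM in ADM 1 to 3. *Dgat2*, an enzyme of the last step of triglyceride synthesis, rose by 0.72 ± 0.133 without clearing DMEM 1 to 3, and *Dgat1* changed sign with total counts only (-0.051) and dropped to 0.25 without ADM 5 (adjusted p = 0.34).

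**Figure D5:**
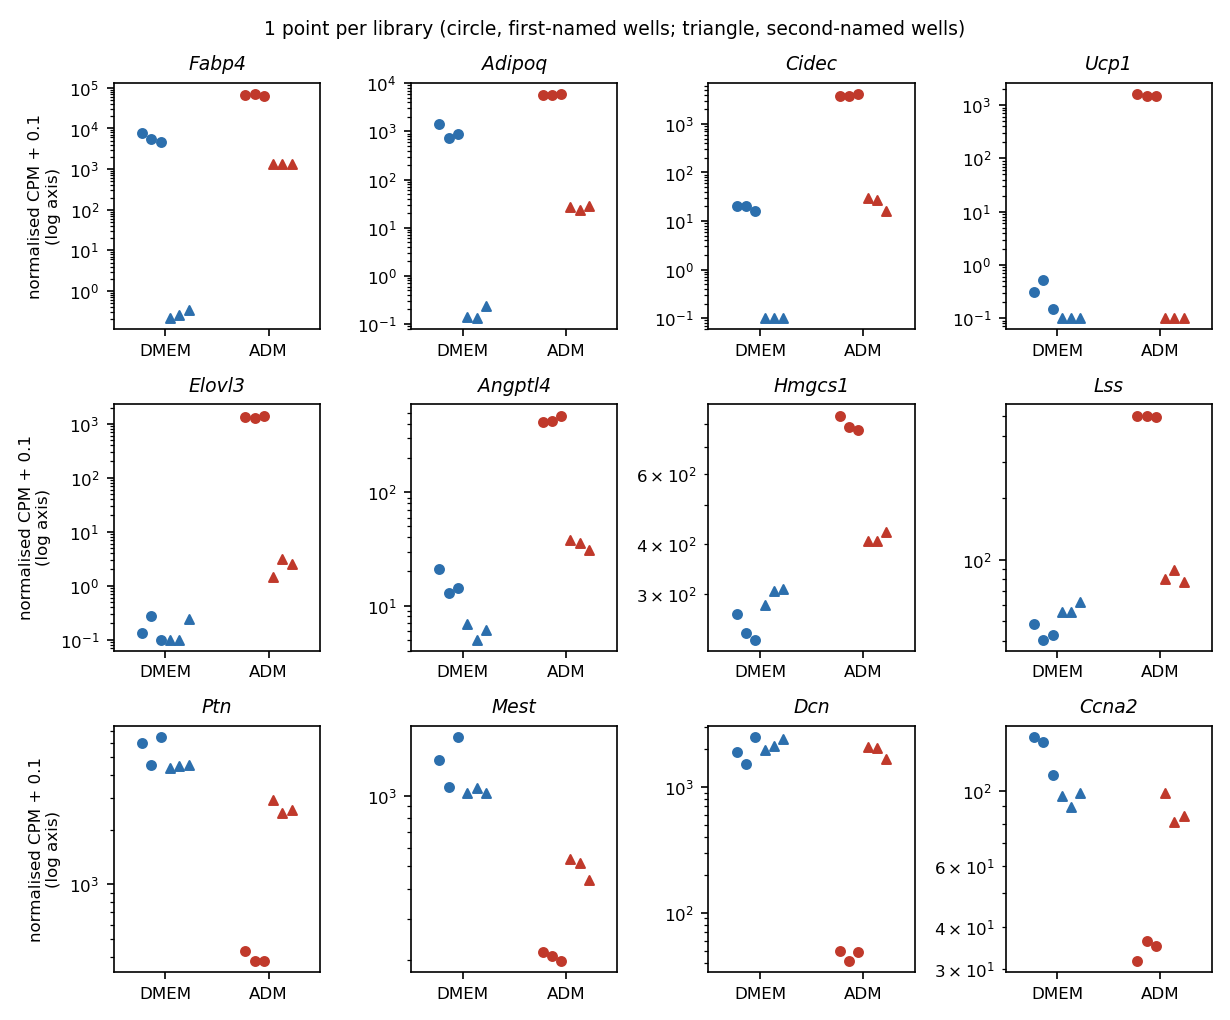
Normalised CPM on log axes for key genes in DMEM and ADM, with 1 point a library and shapes for the column-name series. *Fabp4* reaches 61680 to 69770 in ADM 1 to 3 and 1318 to 1348 in ADM 4 to 6, against 4676 to 7904 in DMEM 1 to 3 and 0.1137 to 0.2444 in DMEM 4 to 6.

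Genes of de novo lipogenesis rose in 14 of 22 tested and fell in 4 (median 1.44), with 15 above all DMEM libraries in ADM 1 to 3 and 2 in ADM 4 to 6. For 5 members ADM 1 to 3 were below all DMEM libraries. *Scd1*, which makes monounsaturated fatty acids, was at 46021 to 49265 normalised CPM in ADM 1 to 3, 131.5 to 143.8 in ADM 4 to 6 and 90.12 to 676.9 in DMEM (3.67 ± 0.187, adjusted p = 3.4e-09). *Fasn*, the fatty acid synthase, was at 1638 to 2038, then 49.38 to 60.63, against 49.86 to 356.8 (1.39 ± 0.115). For *Scd1* ADM 4 to 6 lay inside the DMEM range, and for *Fasn* at its lower end, with ADM 5 just below it. *Me1*, a source of NADPH, rose by 2.61 ± 0.096, *Scd2* by 1.01 ± 0.12 and *Thrsp*, a lipogenic factor, by 5.13 ± 0.292. The members that fell act on long or polyunsaturated chains: the desaturases *Fads1* (-0.40 ± 0.076) and *Fads2* (-0.73 ± 0.089), *Elovl5* (-0.41 ± 0.092) and *Hacd2* (-1.37 ± 0.309, not called when any 1 of 6 libraries was left out, adjusted p up to 0.018 without ADM 1).

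Cholesterol genes differed from the other lipid genes in their pattern over wells. Of 25 tested, 12 rose and 2 fell (median 0.26), with more falling than rising under total counts only. ADM 1 to 3 were above every DMEM library for 10 and below for 3, and ADM 4 to 6 were above for 11. Between the media 6 genes did not overlap at all: *Hmgcs1*, *Mvd*, *Fdps*, *Lss*, *Hsd17b7* and *Sc5d*. The 6 compare with 2.40% of all genes. *Hmgcs1* was at 774.3 to 838.8 normalised CPM in ADM 1 to 3 and 405.83 to 428.02 in ADM 4 to 6, against 230 to 308.3 in DMEM (1.07 ± 0.07, adjusted p = 3e-11). *Lss*, which closes the sterol rings, was at 496.4 to 501.3, then 77.82 to 88.62, against 40.6 to 62.32 (1.99 ± 0.075). *Fdps*, which makes the farnesyl unit, was at 286.8 to 339.8, then 244.1 to 254.95, against 151.6 to 225.2 (0.60 ± 0.073). With total counts only, *Hmgcs1* and *Lss* still did not overlap and the other 4 did, and after thinning to equal depth *Hsd17b7* and *Sc5d* overlapped. *Acat2* rose by 0.87 ± 0.069. *Srebf2*, the regulator of the pathway, fell by 0.37 ± 0.089 and *Mvk* by 0.45 ± 0.098, and the rise of *Idi1* (0.26) changed sign with total counts only (-0.25).

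Adipokines and genes of the insulin response rose in 19 of 28 tested and fell in 3 (median 1.52), with 20 above all DMEM libraries in ADM 1 to 3 and 1, *Cav1*, in both sets. Below all DMEM libraries were 2 in ADM 1 to 3 and 1 in ADM 4 to 6. *Adipoq*, which encodes adiponectin (chr16:23146536-23158028, + strand), was at 5818 to 5923 normalised CPM in ADM 1 to 3 and 23.48 to 28.65 in ADM 4 to 6. It was at 727.7 to 1412 in DMEM 1 to 3 and 0.03172 to 0.1397 in DMEM 4 to 6 (5.46 ± 0.216, adjusted p = 1.3e-11). The size of this change is uncertain, since DMEM 4 to 6 lay near or below the level of 3 counts (0.0952 to 0.114 CPM). *Car3*, a carbonic anhydrase of fat and muscle, had the same order, at 22156 to 24596, then 163.04 to 206.3, against 9282 to 14713 and 0.07577 to 0.5237. *Rbp4* was at 1399 to 1519, then 0.8818 to 1.91, against 20.43 to 60 and 0 (adjusted p = 0.0035, up to 0.021 without ADM 4). The glucose transporter gene *Slc2a4* rose by 1.62 ± 0.177, and the caveolar gene *Cavin1*, which changed sign with total counts only (-0.044), by 0.46 ± 0.079. *Igfbp4*, *Igf1* and *Irs1*, of the insulin-like growth factor pathway, fell by 1.52 ± 0.099, 0.83 ± 0.088 and 0.91 ± 0.103. *Lep*, which encodes leptin, was at 0 to 4.988 CPM in every library and did not pass the test (adjusted p = 0.27). *Cfd*, which encodes adipsin, was at 0 to 9.762 CPM in ADM and 0 to 105.6 in DMEM (adjusted p = 0.81).

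Thermogenic genes were measured mainly in 1 set of ADM wells. Of 27 tested, 8 rose and 3 fell (median 1.15), with 18 above every DMEM library in ADM 1 to 3 and 2, *Elovl3* and *Ucp2*, in ADM 4 to 6. Below every DMEM library were 4 in ADM 1 to 3 and 3 in ADM 4 to 6. *Ucp1* (chr8:83290352-83298452, + strand) was at 1470 to 1603 normalised CPM in ADM 1 to 3, from 8785, 9230 and 9936 counts. It had 0 counts in ADM 4 to 6 and in DMEM 4 to 6, and 6, 10 and 2 counts in DMEM 1 to 3. The means were 762.3 ± 836.2 in ADM and 0.1148 ± 0.1732 in DMEM (SD, n = 6 each), and since a set in each medium is at 0, the averaged change has no usable error and no fold is given. *Cidea*, a droplet gene of brown fat, had the same shape at 3388 to 4213 CPM in ADM 1 to 3, 6.076 to 16.65 in DMEM 1 to 3 and 0 in the other 6 libraries. *Cox7a1*, a cytochrome oxidase subunit of brown fat, was at 917 to 1103, then 0.105 to 0.4774, against 10.06 to 31.18 and 0 to 0.2855 (adjusted p = 0.063). *Ppargc1a*, the coactivator of mitochondrial biogenesis, rose by 1.51 ± 0.228 (adjusted p = 9.9e-06) and *Cpt1b*, which brings fatty acids into mitochondria, by 3.65 ± 0.401. *Fgf21*, a hormone released by stressed or active fat, rose by 2.99 ± 0.339. *Ckb*, *Tmem26* and *Lhx8* fell by 0.98 ± 0.081, 1.24 ± 0.262 and 1.83 ± 0.306, and *Ckb* and *Lhx8* did not overlap between media, though *Lhx8* did after thinning to equal depth. *Dio2*, which activates thyroid hormone, was under 1 CPM in every library. In the white-adipocyte list, of 11 tested, *Retn* and *Agt* rose (3.49 ± 0.188 and 2.74 ± 0.189) and *Mest* fell. Above all DMEM libraries were 4 in ADM 1 to 3 and 0 in ADM 4 to 6, and below all were 1 and 2. Under total counts only more of the list fell than rose.

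The freshly sorted libraries, given as CPM without the TMM factor and with no test since day, sort and culture differ together, stand beside plain CPM of the cultured ones here. In ADM 1 to 3 the plain CPM were 822.9 to 871.7 for *Ucp1*, 35470 to 38230 for *Fabp4*, 48.02 to 65.31 for *Pparg*, 1.29 to 1.605 for *Prdm16* and 709.9 to 810.6 for *Elovl3*. *Ucp1* was at 205.5 to 259.9 CPM in the 2 libraries of Cd36+ cells from E16.5 embryos and 0.8083 to 6.233 in the 4 of Pdgfra+ cells. *Fabp4* was at 3935 to 4576 and 30.89 to 200.2, *Pparg* at 268.6 to 281.5 and 13.28 to 25.65, and *Prdm16* at 65.88 to 86.53 and 3.868 to 7.369. *Elovl3* was at only 0.7284 to 1.448 and 0 to 0.1506.

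Oxidative genes moved together and in ADM 1 to 3. Of 29 genes of fatty acid oxidation, 27 rose (median 2.03), of 76 nuclear genes of the respiratory chain 75 (median 1.41), of 21 genes of the citrate cycle 20 (median 1.55), and all 13 protein genes of the mitochondrial genome (median 0.88). None of the 4 lists had a member that fell. All DMEM libraries were exceeded by ADM 1 to 3 for 28, 76, 21 and 13 members in the order fatty acid oxidation, nuclear respiratory chain, citrate cycle and mitochondrial genome. ADM 4 to 6 exceeded them for 0 in each list, and were below all of them for 1, 2, 1 and 0. *Hadhb*, a subunit of the trifunctional enzyme of fatty acid oxidation, was at 5830 to 6439 normalised CPM in ADM 1 to 3, 92.22 to 92.86 in ADM 4 to 6 and 58.72 to 388.8 in DMEM (2.49 ± 0.106). *Cox4i1*, a cytochrome oxidase subunit, was at 7947 to 9020, then 568.4 to 583.7, against 501.2 to 1912 (1.26 ± 0.086). *Atp5b*, of ATP synthase, was at 19174 to 19822, then 1662 to 1904, against 1722 to 5779 (1.00 ± 0.089). For *Hadhb* and *Cox4i1* ADM 4 to 6 lay inside the DMEM range, and for *Atp5b* ADM 5 lay just below it. *Acaa2*, *Acadl* and *Etfa* rose by 2.49 ± 0.133, 2.03 ± 0.114 and 2.21 ± 0.11, and *Mpc1*, the mitochondrial pyruvate carrier, and *Idh3a*, of the citrate cycle, by 2.58 ± 0.095 and 1.99 ± 0.124. The mitochondrially encoded *mt-Cytb* rose by 1.07 ± 0.114 and *mt-Atp6* by 0.88 ± 0.104, and *mt-Co1* by 0.78 ± 0.117. With total counts only, 7 of the 13 mitochondrially encoded genes were called, and *mt-Co1* was not.

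Glycolysis and hypoxia genes rose in 22 of 26 tested and none fell (median 1.46), with 23 above all DMEM libraries in ADM 1 to 3 and 2 in ADM 4 to 6. These 2, *Pfkp*, a phosphofructokinase, and *Ndrg1*, a stress-induced gene, did not overlap between media. For 3 other members ADM 4 to 6 were below every DMEM library. *Pfkp* was at 150.9 to 166.2, then 15.76 to 21.01, against 9.6 to 14.53 in DMEM (2.14 ± 0.103), and *Ndrg1* at 49.95 to 62.42, then 20.61 to 21.25, against 10.73 to 15.22 (1.40 ± 0.091). *Aldoa* and *Ldha*, which lead the list in level, rose by 1.47 ± 0.09 and 1.12 ± 0.089, with ADM 4 to 6 at 999.5 to 1088 and 1434 to 1651 CPM and within or below the DMEM ranges of 842 to 4035 and 1517 to 4961.

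Genes that respond to glucocorticoids, which adipogenic media often contain, rose in 10 of 20 tested and fell in 3 (median 0.75), an excess of 7 rises that became 1 with total counts only. ADM 1 to 3 lay above all DMEM libraries for 9 and below for 3, and ADM 4 to 6 for 4 and 1. *Mt1* and *Mt2*, the metallothioneins, were at 2060 to 2577 and 254.99 to 363.4 normalised CPM in ADM 1 to 3 (2.00 ± 0.102 and 2.99 ± 0.132). In ADM 4 to 6 they were at 73.05 to 107.03 and 4.774 to 7.037, against 100.5 to 135.4 and 3.481 to 6.63 in DMEM. *Fkbp5*, a sensitive glucocorticoid target, was at 0.4774 to 4.393 in ADM and 0.5683 to 2.153 in DMEM and did not pass the test (0.72 ± 0.349, adjusted p = 0.095). *Tsc22d3*, another target, rose by 0.38 ± 0.079 but changed sign with total counts only (-0.13). *Errfi1* and *Cdkn1c* fell by 1.23 ± 0.216 and 1.08 ± 0.253, the latter not called when any 1 of 7 libraries was left out (adjusted p up to 0.02, without ADM 1).

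Progenitor and dermal genes were lower. Of 20 anti-adipogenic and preadipocyte genes 8 fell and 3 rose (median -0.71), and of 19 dermal and mesenchymal genes 10 fell and none rose (median -1.03). For 11 and 13 of them ADM 1 to 3 were below every DMEM library, and ADM 4 to 6 for 1 and 0. Above every one were 3 and 0 in ADM 1 to 3, and 1 and 0 in ADM 4 to 6. *Dlk1*, which holds back fat cell formation, was at 94.07 to 132.6 normalised CPM in ADM 1 to 3 and 305.6 to 383.1 in ADM 4 to 6, against 356.3 to 1062 in DMEM (-1.67 ± 0.157, adjusted p = 2.4e-06). *Cd34*, a progenitor marker, was at 2.115 to 2.736, then 15.76 to 21.16, against 19.78 to 59.78 (-2.29 ± 0.135). *Pdgfra* fell by 1.25 ± 0.121 and *Pdgfrb*, its paralog, by 1.08 ± 0.099. *Ddit3*, a stress-induced inhibitor of C/EBP factors, was the largest rise among them at 2.01 ± 0.117, and *Foxo1* and *Sirt1* rose by 1.03 ± 0.231 and 0.58 ± 0.154, both not called without ADM 5 (adjusted p = 0.011 and 0.014). *Crabp1*, a retinoid-binding gene of dermal cells, was at 10.35 to 14.97 CPM in ADM 1 to 3, 307.5 to 346.3 in ADM 4 to 6, 94.31 to 135.1 in DMEM 1 to 3 and 1128 to 1360 in DMEM 4 to 6 (-2.59 ± 0.105). It was thus low where the fat genes were high, within each medium. *Twist2*, a dermal transcription factor, was at 0.1479 to 1.277, then 2.387 to 5.882, against 2.548 to 5.638 and 15.64 to 36.07 (-2.68 ± 0.424). In ADM 1 to 3, 3 counts equal 0.444 to 0.547 normalised CPM, so the size of the *Twist2* fall is uncertain. *Osr1* and *Tcf4* fell by 1.78 ± 0.12 and 0.88 ± 0.092. *Thy1*, the surface marker of the sort, fell by 1.14 ± 0.142, with the levels of each set given above.

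Matrix genes fell more often than they rose. Of 32 collagens and collagen-processing genes 20 fell and 3 rose (median -0.79), and of 35 other matrix genes 31 fell and 1 rose (median -1.04). ADM 1 to 3 were below every DMEM library for 18 and 31 and above for 4 and 1. ADM 4 to 6 were below for 5 and 3 and above for 3 and 6. *Col1a1* and *Col3a1*, the main fibrillar collagens, were at 1896 to 2739 and 684.8 to 863 normalised CPM in ADM 1 to 3 (-1.25 ± 0.127 and -1.95 ± 0.108). In ADM 4 to 6 they were at 8474 to 9735 and 5636 to 6448, inside the DMEM ranges of 6555 to 15692 and 4987 to 10523. *Dcn* and *Lum*, proteoglycans that space collagen fibrils, fell by 2.80 ± 0.115 and 2.98 ± 0.128, with ADM 1 to 3 at 41 to 49.8 and 13.68 to 15.38 CPM. In ADM 4 to 6 they were at 1664 to 2068 and 714.7 to 888.6, inside the DMEM ranges of 1510 to 2487 and 466.2 to 1172. *Fn1* and *Postn* fell by 1.16 ± 0.104 and 1.23 ± 0.108, also with ADM 4 to 6 inside the DMEM ranges. The collagen chaperone *Serpinh1* fell by 1.25 ± 0.117. *Col16a1* and the progenitor surface gene *Cd248* fell by 3.099 ± 0.391 and 2.71 ± 0.52. *Ogn*, a small proteoglycan, did not overlap between media, at 18.93 to 19.7, then 232.3 to 261.2, against 272.4 to 741.3. Against the list, *Col6a3*, whose product is cut into endotrophin, was higher in every ADM library, at 188.1 to 223.6 against 58.44 to 158.9 (0.86 ± 0.104), though its media overlapped with total counts only. *Plod1* rose by 1.15 ± 0.09 and *Spp1*, which encodes osteopontin, by 0.88 ± 0.144.

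The contractile genes of the smooth muscle type fell in 20 of 25 tested and none rose (median -0.68). For 21 of them ADM 1 to 3 were below every DMEM library, whereas ADM 4 to 6 were above every one for 6 and below for 0. *Acta2*, the actin of smooth muscle and myofibroblasts, was at 3235 to 3705 normalised CPM in ADM 1 to 3, 13470 to 17049 in ADM 4 to 6 and 9391 to 16683 in DMEM (-0.86 ± 0.09). *Tagln* was at 241.4 to 263.4, then 998.3 to 1146, against 636.8 to 1002 (-0.68 ± 0.086), and *Tpm4* at 402.6 to 490.5, then 1522 to 1701, against 892.1 to 1428 (-0.44 ± 0.074). The 2 ADM sets thus lay on either side of the DMEM wells for *Tpm4*, so that the averaged value describes neither set.

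Signalling genes fell more often than they rose. Of 36 genes of the Wnt pathway 15 fell and 3 rose (median -0.68), and of 36 of the Tgf-beta and Bmp pathway 17 fell and 2 rose (median -0.41). Below every DMEM library were 18 and 19 of them in ADM 1 to 3, and 2 and 4 in ADM 4 to 6. Above every one were 3 and 5 in ADM 1 to 3, and 1 and 3 in ADM 4 to 6. The secreted Wnt inhibitors *Sfrp2* and *Sfrp1* were at 44.1 to 301.9 and 7.543 to 25.9 normalised CPM over the ADM libraries, with 1144 to 2188 and 142.9 to 228.5 in DMEM 1 to 3 and 210.99 to 245.98 and 23.95 to 30.12 in DMEM 4 to 6. They fell by 2.37 ± 0.349 and 2.01 ± 0.184. *Wnt5a*, a non-canonical ligand, was at 14.32 to 32.14 in ADM and 22.68 to 42.58 in DMEM (-0.69 ± 0.102, adjusted p = 7.5e-06). *Lef1*, the nuclear partner of beta-catenin, was at most at 3.092 CPM in any library and did not pass the test (0.73 ± 0.518, adjusted p = 0.26). The rises of *Ctnnb1*, *Znrf3* and *Ryk* (0.27, 0.46 and 0.56) were lost when any 1 of 5, 10 and 9 libraries, in that order, was left out (adjusted p up to 0.023, 0.047 and 0.049), and those of *Ctnnb1* and *Znrf3* changed sign with total counts only. The receptor *Tgfbr2* fell by 2.33 ± 0.335, *Fstl1*, a secreted modulator, by 1.22 ± 0.094, and *Id2*, a target of Bmp signals, by 1.11 ± 0.084.

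Cell cycle genes fell in 32 of 35 tested and none rose (median -0.92). All 35 lay below every DMEM library in ADM 1 to 3, whereas ADM 4 to 6 were below for 3 and above for 3. *Top2a*, needed for chromosome separation, was at 14.41 to 19.2 normalised CPM in ADM 1 to 3, 47.16 to 61.94 in ADM 4 to 6 and 53.73 to 67.61 in DMEM (-1.00 ± 0.087). *Mki67*, the proliferation marker, was at 6.212 to 14.05, then 14.32 to 16.42, against 16.72 to 30.14 (-0.79 ± 0.127). It did not overlap between media with TMM factors and did with total counts only and after thinning to equal depth. *Ccna2*, *Mcm6* and *Ccnb1* fell by 1.04 ± 0.083, 1.099 ± 0.081 and 0.89 ± 0.075. Of 13 cell cycle inhibitors 6 rose and 2 fell (median 0.38), with more falling than rising under total counts only. Above all DMEM libraries were 7 in ADM 1 to 3 and 2 in ADM 4 to 6, and below all were 4 in ADM 1 to 3. *Cdkn1a*, which encodes p21, was at 533.9 to 647.5, then 300.2 to 329.9, against 151.6 to 331.1 in DMEM (0.83 ± 0.087), and *Btg1* rose by 1.41 ± 0.122. *Rgcc*, a regulator of the cell cycle, was at 281.8 to 356.6, then 12.23 to 14.8, against 44.13 to 65.17 and 4.167 to 5.107 (2.02 ± 0.104, adjusted p = 6.3e-13), in the same order of sets as *Fabp4*.

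Immune-type lists were small and mixed. Of 19 cytokine, chemokine and acute phase genes 7 fell and 1 rose (median -0.45), and of 19 interferon and antigen presentation genes 3 fell and 1 rose (median -0.29), the latter a smaller share of falls than the 19.8% of all genes. Below every DMEM library were 10 and 6 of them in ADM 1 to 3, and none in ADM 4 to 6. Above every one were 2 and 1 in ADM 1 to 3, and 3 and 1 in ADM 4 to 6. *Cxcl12*, a chemokine of stromal cells, fell by 0.69 ± 0.086 and *Vcam1*, an adhesion molecule, by 1.33 ± 0.09. *H2-K1*, a class I antigen-presenting molecule, rose by 1.41 ± 0.205, while *B2m*, its partner chain, fell by 0.81 ± 0.123. *H2-K1* belongs to a family of near-identical genes, so its counts are uncertain.

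Of the largest rises, several rest on a set at 0 and are given as levels. *Trarg1*, which helps traffic the glucose transporter, was at 222.3 to 311.4 normalised CPM in ADM 1 to 3, 1.155 to 2.645 in ADM 4 to 6 and 0 to 1.954 in DMEM (6.07 ± 0.424). The size of its fold is uncertain, since DMEM 4 to 6 were at 0 to 0.1894. *Mrap*, which carries the corticotropin receptor to the surface, was at 698.5 to 742.3, then 0.9549 to 3.046, against 23.79 to 42.99 and 0, and *Adig*, or adipogenin, at 330 to 371.4, then 0.5252 to 1.432, against 13.39 to 29.46 and 0. *Rpl10-ps3*, a pseudogene by its symbol but protein coding in the reference used, was at 4.536 to 413.4 in ADM and 0 to 6.065 in DMEM. Reads shared with its parent gene make its level uncertain. Of the largest falls, *Smoc2*, a matricellular protein, fell by 2.78 ± 0.15 and *Tspan11* by 2.69 ± 0.221. *Smoc2* was at 2.278 to 2.662 in ADM 1 to 3 and 178.8 to 232.2 in ADM 4 to 6, against 55.81 to 336.3 in DMEM. *Tspan11* was at 0.1824 to 0.8136, then 12.89 to 17.41, against 8.469 to 29.47. For both, ADM 4 to 6 lay inside the DMEM range. *Prss35*, a secreted protease-like protein that did not overlap between media, fell by 2.76 ± 0.201.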

How the data were processed

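Bulk RNA-seq libraries were prepared with the Smart-seq2 protocol from total RNA of pooled sorted cells, cultured or freshly sorted. The table that the authors deposited for the bulk samples holds raw read counts per gene for 22938 genes, without normalisation or strand information. The counter, its version and the annotation used for the bulk libraries are not given in the sources used here. The submitters' processing notes name bcl2fastq, kallisto 0.44.0, STAR, Cell Ranger, Seurat and the mm10 build, with no role for each. The single-cell files were not used here. No column of the authors' own comparisons was present, and 0 columns of per-sample values went unused.

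Columns were assigned to ADM or DMEM by header and label, and both Thy1 sorts were kept together. Genes were filtered with filterByExpr, scaled with TMM factors and tested with edgeR 4.0.16 (R 4.3.3, quasi-likelihood F test, robust fit, Benjamini-Hochberg over all genes tested, adjusted p under 0.01). The averaged test used 4 groups (medium by column-name series) and was chosen after the data were seen. DESeq2 1.42.0 was an alternative. Normalised CPM are counts per 1000000 after TMM scaling, plain CPM are without it, and the standard error was taken from the fold change and F. Library measures were compared by a 2-sided exact permutation test (SciPy 1.17.1). The scripts were tested on simulated counts with 200 changed genes. Alternatives were other scalings (RLE, upper quartile, total counts only), filters, all bulk libraries in the fit, thinning to equal depth, GC-corrected offsets, the well number as a block, and each library left out in turn.

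The members and the gene lists were chosen with earlier results of these data known. Genes named are key genes of adipogenesis, the dermis and the study's markers, the 12 largest called changes in each direction with a mean of at least 10 CPM, up to 4 called members of each list in each direction by mean CPM, and marker genes with a mean of at least 10 CPM, with exceptions left out for length. Other genes, such as *Lss*, *Hmox1*, *Ucp2*, *Ptn*, *Gpc3*, *Pfkp* and *Ndrg1*, were named after their values were seen. Gene positions and transcript GC are from the GRCm38 reference, with GC known for all but 4 of the genes tested in the averaged test, and promoters are from the RefSeq table of GRCm38.p6. Wells with the same number did not deviate together between sets (correlations of deviations from set means -0.093 to 0.047). Wells of a set differed by more than sampling noise (chi-square per degree of freedom 4.08 to 67.92). Intervals and floors cover counting error only, since amplified reads without molecular identifiers are not independent molecules.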

Additional observations from a re-analysis of the deposited data

Results flagged for a closer look

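Each gene named in the report and each library measure was examined in each medium, and in 7 of these groups of 6 libraries (2.0%) 1 library lay far from the other 5 by Dixon's 95% criterion on its gap to the nearest library. The criterion flags about 1 in 20 groups by chance only where the 6 libraries come from 1 spread. Each medium held 2 sets of wells that often lay far apart, which makes a flag less likely. The 2.0% and the lack of flags in ADM can therefore not be set against that rate. All 7 were in DMEM. In DMEM 1 they were *Cav1* (1133 normalised CPM, the next at 766.8), *Rbp4* (60, the next at 20.61) and *Rpl10-ps3* (6.065, with 0 in the other 5). In DMEM 2 they were *Elovl5* (43.62, the next at 55.95) and *Lef1* (0.2548, the next at 0.8714). In DMEM 3 they were *Htra1* (84.89, the next at 40.8) and *Prss35* (25.74, the next at 19.13).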

How the results depend on the processing

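Called genes are given as a percent of 12029 (12969 for the averaged test), the genes tested in the reported fits, to keep 1 denominator, although alternatives tested other sets (21600 genes without a filter, 17586 with all bulk libraries and 9065 after thinning). The share of 0% called from the pooled libraries moved with some choices and not with others. It stayed at 0% with RLE factors, with upper-quartile factors, with a filter of at least 1 CPM in at least 6 libraries and without the robust fit. It was 9.86% with DESeq2 (6.07% called with at least 2-fold), 5.38% at an adjusted p under 0.05 (3.52%), 1.69% with all bulk libraries in the fit (1.38%), 0.175% without a filter on low counts (0.175%), 0.0748% after thinning to equal depth (0.0748%), 0.0416% with total counts only (0.0416%), 0.0249% with GC-corrected offsets (0.0249%) and 37.1% averaged over the series (14.4%). Leaving out 1 library gave 0% to 0.474% (0% to 0.466% of at least 2-fold), the highest without DMEM 1, and 0.0333% without ADM 4 (0.0333% of at least 2-fold). The averaged test gave 6.91% higher and 47.3% lower with total counts only, and 14.9% to 17.5% higher and 17.5% to 19.3% lower with 1 library left out. Genes without overlap between the media made up 0.474% higher with total counts only, 1.5% higher and 1.71% lower after thinning, and 2.53% to 3.54% higher and 2.78% to 4.41% lower with 1 library left out (3.54% and 4.41% without ADM 4, and 4.15% lower without DMEM 1). Of the higher genes without overlap 97.9% were shared with RLE factors and 42 genes with total counts only. The lists with more members higher than lower numbered 14 to 16 with 1 library left out. Differences in library measures (ADM minus DMEM) ranged from -17.56 to -14.39 M counts (1 M is 1000000 counts), -2557 to -2242 genes, 2.458 to 4.89 points of mitochondrial share and 2.085 to 4.351 points of the share of the top 20 genes. Reversed with total counts only were *Nfib* (-0.189), *Idi1* (-0.253), *Cavin1* (-0.044), *Tsc22d3* (-0.128), *Ctnnb1* (-0.237), *Znrf3* (-0.043), *Ltbp3* (-0.095), *Btg2* (-0.123) and *Dgat1* (-0.051). The well numbers did not pair the wells. With the well number as a replicate block the pooled test gave 0 genes and the averaged test 2131 higher and 2418 lower.

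The ADM libraries hold fewer counts, so low genes are measured less precisely there, and depth and medium cannot be told apart. The TMM factors of ADM 1 to 3 stand apart from those of the other libraries, and the cause of the moves under total counts only was not tested. The sort in each series was not resolved, and the number of pools behind the wells is not known here.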
